A study of Mus musculus with 6 samples.

Results

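Clusters 9 and 8 of the deposited day 14 table held 341 of its 19757 cells, out of 38651 cells in the 6 libraries of the series. They were taken by cluster label alone and had been proposed as a stronger and a weaker stage of plasma-like cells. Cluster 9 held 72 and 71 cells of libraries 1 and 2, which is 0.79% (0.619 to 0.994) of library 1 and 0.667% (0.521 to 0.84) of library 2. Cluster 8 held 105 and 93 cells, which is 1.15% (0.944 to 1.39) of library 1 and 0.873% (0.706 to 1.07) of library 2, with exact 95% intervals in brackets. The remaining 8932 and 10484 day 14 cells of the same libraries are called the other cells.

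The cells came from the spleens of wild type mice, 14 days after NP-haptenated antigen had been given in alum. They had been sorted as B220+ CD95hi GL7hi IgD- germinal centre (GC) B cells, and transcripts were counted in droplets by unique molecular identifiers (UMIs). Mouse strain and age are not given in the sources used here. The labels do not say that the 2 libraries came from separate animals, so the spread between them may be technical.

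A GC B cell that commits to antibody secretion switches on the transcription factors Blimp-1 (encoded by Prdm1), IRF4 and XBP1 and silences the B cell program held by BCL6, PAX5 and BACH2. XBP1 enlarges the endoplasmic reticulum (ER), where antibody chains are translocated, folded, glycosylated and checked before export. Committed cells gain syndecan-1 (Sdc1) and the joining chain of polymeric antibody (Jchain), and in time they lose surface receptor and class II transcripts.

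The clusters were drawn on these same genes, so every contrast below is a description without a test. Levels are UMIs summed over the cells of a set in a library, as counts per 1000000 UMIs of genes other than immunoglobulin genes (CPM), and pairs of values are for libraries 1 and 2 in that order. A gene was measured if it reached 20 CPM in either set in both libraries. It was called higher or lower if its log2 ratio was 1 or more away from 0 in the same direction in both libraries, with exact 95% intervals that excluded equality in both. All intervals cover counting error only. Median UMIs per cell were 5074 and 4725 in cluster 9, 2296 and 2132 in cluster 8 and 3404.5 and 3180 in the other cells. Barcodes shared by the 2 libraries numbered 135, of which 0 were cells of cluster 9 or 8.

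The 5 markers behind the proposed name did not move together. All 5 were called higher in cluster 9 than in the other cells, but only Jchain, Xbp1 and Slpi were in cluster 8. Prdm1 (chr10:44437177-44528501 on GRCm38, as are all gene positions here) stood at 286 and 345 CPM in cluster 9, at 3.71 and 16.5 CPM in cluster 8 and at 5.14 and 6.33 CPM in the other cells. The cluster 8 levels rest on 1 and 4 UMIs. The log2 ratio of Prdm1 to the other cells was 5.8 (5.42 to 6.17) and 5.77 (5.43 to 6.1) in cluster 9 and -0.47 (-5.78 to 2.03) and 1.38 (-0.51 to 2.76) in cluster 8, where both intervals include equality.

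Jchain (chr5:88519809-88527891) stood at 5969.8 and 3256 CPM in cluster 9, at 1578 and 2690.3 CPM in cluster 8 and at 294 and 303 CPM in the other cells. Slpi, a secreted inhibitor of serine proteases (chr2:164354070-164389095), stood at 1107 and 687 CPM in cluster 9, at 182 and 882 CPM in cluster 8 and at 25.9 and 26.4 CPM in the other cells. Both products were above the other cells in both clusters and both libraries, and for Slpi cluster 8 exceeded cluster 9 in library 2. That value leans on few cells: 1 cell held 71 of the 214 Slpi UMIs of cluster 8 in library 2, and 10 cells held 92.5% of them.

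Xbp1 (chr11:5520659-5525893) stood at 987 and 627 CPM in cluster 9, at 275 and 396 CPM in cluster 8 and at 75.8 and 80.4 CPM in the other cells. Fkbp11, a folding enzyme of the secretory pathway (chr15:98724366-98728198), stood at 119.9 and 56.5 CPM in cluster 9, at 7.43 and 0 CPM in cluster 8 and at 0.721 and 0.514 CPM in the other cells. Its cluster 8 levels rest on 2 and 0 UMIs, where a count of 3 would be 11.1 and 12.4 CPM. Xbp1 was thus graded over the 3 sets, whereas Fkbp11 and Prdm1 stood far higher in cluster 9 than in both other sets. At least 1 Fkbp11 UMI was seen in 18 and 10 cells of cluster 9 (25% and 14.1%), in 2 and 0 of cluster 8 (1.9% and 0%) and in 24 and 14 other cells (0.269% and 0.134%).

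Cluster 8 carried 3 of the 5 markers above the other cells, no raised Prdm1 or Irf4, and GC genes near the level of the other cells, as described below. Whether cluster 8 is a weaker plasma stage was not tested, so it is called cluster 8 throughout. Cluster 9 has the markers of plasma-like cells.

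**Figure D1:**
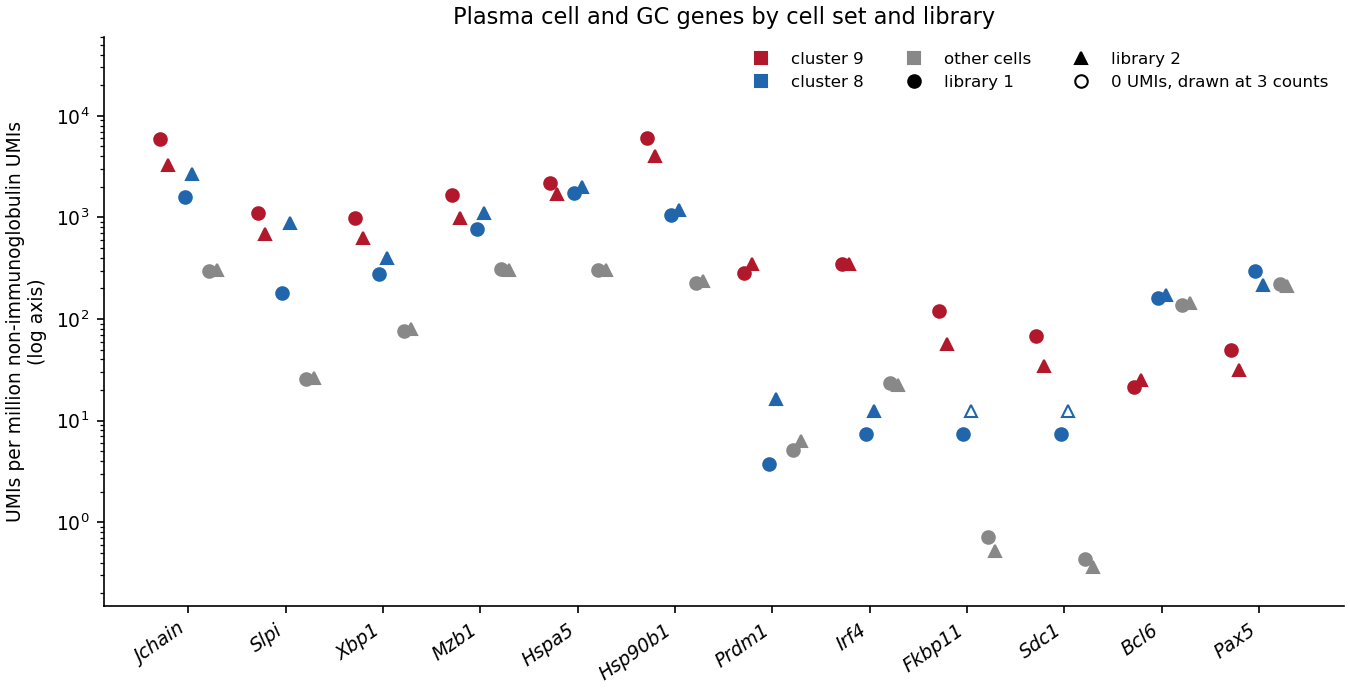
Levels of plasma cell genes and of the GC genes Bcl6 and Pax5 in cluster 9, cluster 8 and the other cells, as UMIs in CPM on a log axis, with circles for library 1, triangles for library 2 and open symbols for 0 UMIs drawn at the level of 3 counts. Prdm1, Irf4, Fkbp11 and Sdc1 separate cluster 9 from both other sets, while Jchain, Slpi, Xbp1 and Hspa5 of cluster 8 also lie above the other cells.

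Counted per cell, Prdm1 had at least 1 UMI in 45 and 53 cells of cluster 9 (62.5% and 74.6%), in 1 and 4 cells of cluster 8 (0.952% and 4.3%) and in 136 and 191 other cells (1.52% and 1.82%). With every cell thinned to 1000 UMIs of non-immunoglobulin genes, these shares were 18.3% and 32.8% in cluster 9, 1% and 1.22% in cluster 8 and 0.523% and 0.642% in the other cells. The cluster 8 share stayed near that of the other cells, and that of cluster 9 far above both, although the far more numerous other cells hold more cells with a Prdm1 UMI. Thinning left out 1 and 4 shallower cells of cluster 9, 5 and 11 of cluster 8 and 336 and 516 other cells.

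At least 1 Jchain UMI was found in 88.9% and 85.9% of cluster 9 cells, 81.9% and 77.4% of cluster 8 cells and 48.4% and 48.5% of other cells. With cells thinned to 1000 UMIs the shares were 66.2% and 65.7% in cluster 9, 63% and 67.1% in cluster 8 and 20.2% and 22% in the other cells. No cell type known to lack Jchain was measured beside them, so they are shares of cells with a UMI and not of cells that express the gene. The amount per cell set the clusters apart, with a median of 8.5 and 5 UMIs in cluster 9, 2 and 3 in cluster 8 and 0 and 0 in the other cells. Cluster 9 was uneven in it: 8 cells of each library held 63.5% and 65.6% of its Jchain UMIs.

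Both Prdm1 and Irf4 were seen in 26 and 35 cells of cluster 9, in 0 cells of cluster 8 in either library and in 27 and 39 other cells. These counts were not matched for depth.

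Cluster 9 against the other cells had 362 of 6322 measured genes called higher (5.73%) and 262 called lower (4.14%), with a median log2 ratio of all measured genes of -0.19 and -0.13. Of the 9 measured plasma cell transcription factors 6 were called higher, with a list median of 2.0 and 2.04. These were Prdm1, Xbp1, Irf4, Ell2, Creb3l2 and Atf6, while Ikzf3, Pou2af1 and Zbtb20 were not called.

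Irf4, which drives commitment to the plasma cell fate at high levels, stood at 351 and 351 CPM in cluster 9, at 7.43 and 12.4 CPM in cluster 8 and at 23.6 and 22.2 CPM in the other cells. Ell2, an elongation factor that favours the secreted form of heavy chain transcripts, stood at 286 and 317 CPM in cluster 9, at 96.6 and 111 CPM in cluster 8 and at 71.6 and 77.1 CPM in the other cells. Creb3l2, an ER-tethered transcription factor, stood at 64.6 and 78.4 CPM in cluster 9, at 0 and 0 CPM in cluster 8 and at 0.837 and 1.13 CPM in the other cells. In each of these the cluster 8 values were below those of cluster 9 in both libraries. Bhlha15, which encodes the secretory cell factor MIST1 and is on no factor list here, stood at 61.5 and 43.9 CPM in cluster 9, at 0 and 0 CPM in cluster 8 and at 0.173 and 0.489 CPM in the other cells.

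Of the 17 measured genes of plasma cell products and surface proteins, 14 were called higher in cluster 9 and 0 lower, with a median log2 ratio of 3.95 and 3.43. Sdc1 stood at 67.7 and 34.5 CPM in cluster 9, at 7.43 and 0 CPM in cluster 8 and at 0.433 and 0.36 CPM in the other cells, on 2 and 0 UMIs in cluster 8. Mzb1, an ER cochaperone of antibody assembly, stood at 1679 and 988 CPM in cluster 9, at 761 and 1100.0 CPM in cluster 8 and at 310.1 and 302 CPM in the other cells. Prg2, known as an eosinophil granule protein, stood at 314 and 138 CPM in cluster 9, at 3.71 and 12.4 CPM in cluster 8 and at 1.67 and 2.52 CPM in the other cells. Mzb1 was thus high in both clusters, and Sdc1 and Prg2 in cluster 9. Tnfrsf13b, Eaf2 and Slamf7 were the listed genes not called.

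Several of the genes with the largest ratios in cluster 9 had no UMI in cluster 8. Hid1, a protein of dense-core granule biogenesis, stood at 39.98 and 22 CPM in cluster 9, against 0.0866 and 0.103 CPM in the other cells. Rbm47, an RNA-binding protein, stood at 148 and 157 CPM in cluster 9, against 2.14 and 1.29 CPM in the other cells. Lag3, an inhibitory receptor that binds class II, stood at 58.4 and 53.3 CPM in cluster 9, against 1.07 and 1.0 CPM in the other cells. All 3 had levels of under 3 CPM in the other cells. Ckap4, an ER membrane protein that anchors microtubules, stood at 154 and 109.8 CPM in cluster 9, against 2.8 and 1.88 CPM in the other cells. Entpd1, the ectonucleotidase CD39, stood at 43.1 and 25.1 CPM in cluster 9, against 0.75 and 0.411 CPM in the other cells.

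The secretory machinery was broadly higher in cluster 9. Calls of higher level covered 20 of 25 measured ER chaperones and folding enzymes, 15 of 22 genes of the translocon and signal peptidase and 14 of 21 N-glycosylation genes. They also covered 15 of 28 ER to Golgi transport genes and 7 of 18 genes of ER-associated degradation, and 0 genes of these 5 lists were called lower. The list medians were 2.25 and 2.15 for the chaperones, 1.53 and 1.26 for the translocon and 1.36 and 1.41 for N-glycosylation. Sec61b, a subunit of the translocation channel, stood at 923 and 718 CPM in cluster 9, at 78 and 148 CPM in cluster 8 and at 252 and 243 CPM in the other cells.

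The ER stress response element, bound by ATF6 together with NF-Y, reads CCAAT, then 9 bases of any kind, then CCACG. Of the 26 chaperone genes 21 matched a RefSeq promoter (250 bases before to 50 after the start), and 7 of them held this element on either strand. Over all 27025 symbols with a promoter 37 held it (0.137%). The promoters of 4 members with a match, whose levels in the clusters are given next, are shown on the strand of the gene, from RefSeq on GRCm38.p6, with the fixed bases of each match in capitals. On the opposite strand a match reads CGTGG, 9 bases, then ATTGG. A match describes letters and not binding. The windows are chr2:34771840-34772139 (plus strand) for Hspa5, chr10:86705395-86705694 (minus strand) for Hsp90b1, chr15:88819396-88819695 (plus strand) for Creld2 and chr14:118937682-118937981 (plus strand) for Dnajc3.
Hspa5: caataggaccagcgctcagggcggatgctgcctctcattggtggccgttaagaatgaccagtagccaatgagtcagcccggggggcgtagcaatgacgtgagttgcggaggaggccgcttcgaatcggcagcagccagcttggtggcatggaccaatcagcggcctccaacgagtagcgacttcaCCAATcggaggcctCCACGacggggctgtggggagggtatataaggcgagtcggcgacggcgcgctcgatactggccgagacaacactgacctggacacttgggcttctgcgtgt
Hsp90b1: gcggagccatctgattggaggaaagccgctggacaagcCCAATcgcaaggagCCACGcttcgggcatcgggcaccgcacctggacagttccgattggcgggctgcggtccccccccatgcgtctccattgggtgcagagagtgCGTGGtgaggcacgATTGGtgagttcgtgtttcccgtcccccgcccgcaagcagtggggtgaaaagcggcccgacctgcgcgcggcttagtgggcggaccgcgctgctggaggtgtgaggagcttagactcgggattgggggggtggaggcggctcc
Creld2: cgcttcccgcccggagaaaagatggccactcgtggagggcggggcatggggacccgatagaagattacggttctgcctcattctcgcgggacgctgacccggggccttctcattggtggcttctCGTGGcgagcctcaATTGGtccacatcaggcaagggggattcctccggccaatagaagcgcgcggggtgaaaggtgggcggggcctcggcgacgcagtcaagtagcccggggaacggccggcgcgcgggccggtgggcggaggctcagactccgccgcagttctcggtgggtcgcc
Dnajc3: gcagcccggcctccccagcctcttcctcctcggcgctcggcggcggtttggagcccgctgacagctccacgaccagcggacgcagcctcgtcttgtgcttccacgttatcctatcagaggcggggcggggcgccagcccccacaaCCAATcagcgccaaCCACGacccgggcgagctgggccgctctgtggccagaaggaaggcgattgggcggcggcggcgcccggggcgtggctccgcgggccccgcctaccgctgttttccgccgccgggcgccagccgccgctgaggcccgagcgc
Counted from the start site, the match begins at -65 in Hspa5, at -126 in Creld2 and at -105 in Dnajc3. Hsp90b1 holds 2 matches, at -212 and -107.

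These 4 genes share the element, and their levels were unlike in the clusters. Hspa5, the main Hsp70 chaperone of the ER, stood at 2171 and 1703 CPM in cluster 9, at 1734 and 1990.0 CPM in cluster 8 and at 300.2 and 306 CPM in the other cells. Hsp90b1, the Hsp90 of the ER, stood at 6114 and 3996 CPM in cluster 9, at 1062 and 1178 CPM in cluster 8 and at 225 and 238 CPM in the other cells. The log2 ratio of cluster 9 to cluster 8 was 0.32 (0.15 to 0.50) and -0.22 (-0.40 to -0.04) for Hspa5 and 2.53 (2.35 to 2.71) and 1.76 (1.58 to 1.95) for Hsp90b1. Hspa5 was therefore about level between the clusters and Hsp90b1 higher in cluster 9. Creld2, a protein of the ER stress response, stood at 732 and 464 CPM in cluster 9, at 74.3 and 185 CPM in cluster 8 and at 41.9 and 44.4 CPM in the other cells. Dnajc3, an ER cochaperone of the HSPA5 protein, stood at 695 and 502 CPM in cluster 9, at 178 and 189.5 CPM in cluster 8 and at 135 and 127 CPM in the other cells. Both were called higher than in the other cells in cluster 9 and were not called in cluster 8.

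Over all genes, 7 of the 281 with a promoter that were called higher in cluster 9 held the element, 6 of the 534 called higher in cluster 8, and 11 of the 5013 measured in the contrast of cluster 9. In cluster 9 the 7 were the chaperone genes Hspa5, Hsp90b1, Calr, Pdia6, Creld2 and Dnajc3, and Derl3 of ER-associated degradation. In cluster 8 the 6 were Hspa5, Hsp90b1, Calr, Canx, Pdia6 and Derl3. These counts thus hold only genes of the ER lists above. A related element reads ATTGG, 1 base of any kind, then CCACG (0.0444% of all promoters), and an XBP1 element reads TGACGTGG (0.714%). Any of these forms, whose letters can overlap, was found in 6.05% of the genes called higher in cluster 9 and in 2.81% of those called higher in cluster 8. It was found in 1.66% and 1.59% of the genes measured in these contrasts and in 0.884% of all promoters.

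Some genes of other stress responses were higher in cluster 9 as well. Of 14 measured genes of the integrated stress response 4 were called higher, Ddit3, Atf5, Asns and Cebpb. Ddit3, which encodes the stress factor CHOP, stood at 67.7 and 72.1 CPM in cluster 9, at 11.1 and 4.12 CPM in cluster 8 and at 14.8 and 15.5 CPM in the other cells. Of 7 measured interferon genes Irf7, Bst2 and Isg20 were called higher, and Isg20, an exonuclease, stood at 351 and 207 CPM in cluster 9, at 22.3 and 12.4 CPM in cluster 8 and at 39.5 and 37.2 CPM in the other cells. Of 12 measured immediate early genes Fos, Jun and Btg2 were called higher.

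The GC program was lower in cluster 9. Of the 21 measured GC identity genes 10 were called lower and 0 higher, with a median log2 ratio of -1.44 and -1.3. Bcl6, the master repressor of the GC state, stood at 21.5 and 25.1 CPM in cluster 9, at 159.7 and 173 CPM in cluster 8 and at 138 and 144 CPM in the other cells. Pax5, the keeper of B cell identity, stood at 49.2 and 31.4 CPM in cluster 9, at 293 and 218 CPM in cluster 8 and at 222 and 209 CPM in the other cells. For both the values of cluster 8 lay close to those of the other cells and cluster 9 lay below both. Bach2, Spib, Id3, Ebf1, Gcsam, Mybl1 and Neil1 were among the others called lower, while Rgs13, Mef2b, Irf8 and S1pr2 were among those not called.

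Of the 21 measured B cell receptor and coreceptor genes 6 were called lower in cluster 9, namely Cr2, Cd22, Ms4a1, Bank1, Fcer2a and Cd37. Ms4a1 (CD20) stood at 489 and 345 CPM in cluster 9, against 1020.4 and 998 CPM in the other cells. Of the 11 measured class II genes 0 were called, with a median log2 ratio of -0.49 and -0.005. H2-Aa, given below, was lower than in the other cells in both libraries. H2-Ab1, a class II beta chain, stood at 3116 and 3404 CPM in cluster 9, against 2321 and 2307 CPM in the other cells. Class II transcripts of cluster 9 were thus within the call limits of the other cells while Bcl6 and Pax5 were not.

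Cell cycle genes were lower in part. Of 20 measured S phase genes 5 were called lower in cluster 9, and of 22 G2/M genes 3. Mki67, the proliferation antigen Ki-67, stood at 1132 and 1208 CPM in cluster 9, at 2518 and 2254 CPM in cluster 8 and at 1553 and 1592 CPM in the other cells and was not called. The deposited phase calls put 69.4% and 56.3% of cluster 9 cells in G1, 42.9% and 35.5% of cluster 8 cells and 42% and 41.1% of other cells. The deposited position calls put 76.4% and 71.8% of cluster 9 cells in the light zone, 56.2% and 53.8% of cluster 8 cells and 38.2% and 37.7% of other cells. Such calls read genes named here and are not independent of them. Of 13 measured light zone genes 0 were called higher in cluster 9, and Cd86 and Bcl2a1b were called lower. The median log2 ratio of that list was -0.06 and -0.09. Of 9 measured dark zone genes 4 were called lower in cluster 9 and 0 higher, with a median of -1.33 and -1.36. With G1 cells alone on both sides, 269 genes were called higher and 191 lower in cluster 9.

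Of the 12 genes called lower in cluster 9 with the largest ratios, Sox5, a transcription factor, stood at 3.08 and 3.14 CPM in cluster 9, at 55.7 and 41.2 CPM in cluster 8 and at 24.4 and 24.6 CPM in the other cells. Herc3, a ubiquitin ligase, stood at 6.15 and 9.41 CPM in cluster 9, at 108 and 98.9 CPM in cluster 8 and at 57.7 and 58.9 CPM in the other cells. Dek, a chromatin protein, stood at 98.4 and 97.2 CPM in cluster 9, at 327 and 412 CPM in cluster 8 and at 754 and 770.4 CPM in the other cells. Dek was also low in cluster 8, though not called there, while Sox5 and Herc3 were higher in cluster 8 than in the other cells without a call. Emid1, Parp3, Vrk2, Lpp, Dcbld1, Rdh12, Gsn and Cul4b were also among the 12.

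Several defining markers of other cell types had no UMI in either cluster, but other listed markers of those types did. Levels under that of 3 counts, 9.23 to 12.4 CPM in the clusters, could not be told from 0. Summed T cell markers stood at 138 and 166 CPM in cluster 9, 70.6 and 144 CPM in cluster 8 and 123 and 132 CPM in the other cells, with 8 of 16 markers at 0 in both clusters, Cd3e, Cd4 and Cd8a among them. Summed myeloid markers stood at 319.9 and 176 CPM in cluster 9, 241 and 280.2 CPM in cluster 8 and 138 and 128 CPM in the other cells, and Csf1r, C1qa, Adgre1, Cd14 and Mertk were the 5 of 17 at 0 in both. The myeloid sums of both clusters were thus above those of the other cells in both libraries. Cst3, the 1 measured member, had log2 ratios of 1.02 and 0.29 in cluster 9 and 0.83 and 1.34 in cluster 8, without a call. Summed markers of cytotoxic cells stood at 15.4 and 9.41 CPM in cluster 9, 3.71 and 0 CPM in cluster 8 and 1.44 and 1.05 CPM in the other cells, with 8 of 10 at 0 in both. These cytotoxic sums rest on 5 and 3 UMIs in cluster 9 and on 1 and 0 in cluster 8. Summed plasmacytoid dendritic cell markers stood at 969 and 1308 CPM in cluster 9, 1653 and 1541 CPM in cluster 8 and 1183 and 1143 CPM in the other cells, and 6 of 12 were at 0 in both clusters, Siglech and Ccr9 among them. Of the neutrophil and erythroid markers 4 of 10 and 2 of 9 were at 0 in both. Summed stromal markers stood apart, at 5478 and 3551 CPM in cluster 9, 1419 and 849 CPM in cluster 8 and 775 and 718 CPM in the other cells. Apoe, a lipid carrier, made up 5432 and 3523 CPM of the sum in cluster 9, 1114 and 721 CPM in cluster 8 and 641 and 599.8 CPM in the other cells, and 7 of 15 stromal markers were at 0 in both clusters, Col1a2, Col3a1, Pdgfra and Cxcl12 among them. Of the 5% of cells with the highest doublet scores in each library, 1 and 0 lay in cluster 9 and 4 and 5 in cluster 8. The part of such cells in the results was not tested.

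Cluster 8 against the other cells had 667 of 6574 measured genes called higher (10.1%) and 224 called lower (3.41%). This split depends on the scale. With TMM scaling of the summed counts 319 genes were called higher and 485 lower, and the median log2 ratio of all genes was -0.09 and -0.11 in place of 0.33 and 0.21. Under the first scale 18 of 23 measured ER chaperones, 14 of 22 N-glycosylation genes, 8 of 18 genes of ER-associated degradation and 9 of 25 ER to Golgi genes were called higher. The list medians were 1.66 and 2.06 for the chaperones and 1.35 and 1.63 for N-glycosylation. Their means over the libraries, 1.86 and 1.49, became 1.49 and 1.09 with TMM scaling.

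The folding genes with the highest levels differed between the clusters. Canx, the membrane-bound lectin chaperone calnexin, stood at 341 and 276 CPM in cluster 9, at 668 and 898 CPM in cluster 8 and at 141 and 139 CPM in the other cells. Pdia3, the thiol oxidoreductase that works with calnexin, stood at 557 and 458 CPM in cluster 9, at 925 and 1129 CPM in cluster 8 and at 151 and 149 CPM in the other cells. Calr, the soluble relative of calnexin, stood at 1233 and 1029 CPM in cluster 9, at 494 and 507 CPM in cluster 8 and at 215 and 227 CPM in the other cells. Calr was called higher in cluster 9 than in cluster 8, and Canx and Pdia3 had their highest values in cluster 8 without a call between the clusters. Stt3b, a catalytic subunit of the oligosaccharyltransferase, stood at 119.9 and 91 CPM in cluster 9, at 509 and 437 CPM in cluster 8 and at 151 and 159 CPM in the other cells. Stt3a, its counterpart at the translocation channel, stood at 114 and 97.2 CPM in cluster 9, at 130.0 and 136 CPM in cluster 8 and at 27 and 28.7 CPM in the other cells.

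The translocon list was divided in cluster 8. Of its 22 measured genes 8 were called higher, Ssr1, Ssr2, Ssr3, Spcs1, Spcs2, Sec11a, Srpr and Tram2, and Sec61g was called lower. Sec61g, the small gamma subunit of the channel, stood at 981 and 859.5 CPM in cluster 9, at 119 and 173 CPM in cluster 8 and at 366 and 369 CPM in the other cells. It was thus higher in cluster 9 and lower in cluster 8 than in the other cells.

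Plasma cell regulators were sparse in cluster 8. Of 7 measured transcription factors Xbp1 and Atf6 were called higher, and Atf6, an ER stress sensor, stood at 154 and 91 CPM in cluster 9, at 134 and 128 CPM in cluster 8 and at 41.3 and 37.9 CPM in the other cells. The log2 ratio of Irf4 to the other cells was -1.67 (-4.71 to 0.19) and -0.85 (-3.13 to 0.70), on 2 and 3 UMIs. Of 12 measured products and surface genes 7 were called higher, Jchain, Slpi, Mzb1, Edem1, Txndc5, Derl3 and Slamf7. Slamf7, a surface receptor, stood at 203 and 191 CPM in cluster 9, at 431 and 519 CPM in cluster 8 and at 126 and 128 CPM in the other cells.

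GC identity genes were not called in cluster 8, with 0 of 21 in either direction and a list median of 0.32 and 0.06. The mean of these, 0.19, turned to -0.18 with TMM scaling. Of the 21 measured B cell receptor genes 7 were called higher, Cd79a, Cd81, Ms4a1, Ptprc, Fcmr, Cd52 and Vpreb3. Ms4a1 stood at 2663 and 2822 CPM in cluster 8. Ptprc, the phosphatase CD45, stood at 397 and 514 CPM in cluster 9, at 2429 and 2114 CPM in cluster 8 and at 616 and 622 CPM in the other cells.

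Class II genes were higher in cluster 8. Of the 11 measured members H2-Aa, H2-Ab1, H2-Eb1, H2-DMa, Cd74 and Ctss were called higher, with a list median of 1.17 and 1.26, and the class II activator Ciita was not called. H2-Aa, a class II alpha chain, stood at 643 and 740.3 CPM in cluster 9, at 3803 and 4586 CPM in cluster 8 and at 954 and 824 CPM in the other cells. H2-Eb1, a class II beta chain, stood at 1101 and 1468 CPM in cluster 9, at 5296 and 5212 CPM in cluster 8 and at 1543 and 1432 CPM in the other cells. The values of cluster 8 exceeded those of both other sets in both libraries. The mean of the list medians was 1.22, and 0.84 with TMM scaling.

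Some surface genes of light zone and memory cells were higher as well. Cd83, Cd40, Icam1 and Il21r of 13 measured light zone genes, and Cd38, Cd44, Ly6a and Nt5e of 8 memory-associated genes, were called higher in cluster 8. Cd40, the receptor for T cell help, stood at 33.8 and 43.9 CPM in cluster 9, at 182 and 181 CPM in cluster 8 and at 50.03 and 56.5 CPM in the other cells. Of these lists 9 light zone and 4 memory-associated genes were not called. The surface genes Cd86 and Cd69 and the nuclear factors Relb, Nfkb2 and Bach2 were among them. The mean of the light zone medians, 0.19, turned to -0.19 with TMM scaling.

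The largest ratios in cluster 8 included membrane and ER proteins. Ly75, the endocytic receptor DEC-205, stood at 33.8 and 28.2 CPM in cluster 9, at 271 and 321 CPM in cluster 8 and at 40.02 and 44.5 CPM in the other cells. Erap1, the ER aminopeptidase that trims peptides for class I, stood at 36.9 and 31.4 CPM in cluster 9, at 163 and 173 CPM in cluster 8 and at 24.3 and 25.6 CPM in the other cells. Ly75 and Erap1 were not called in cluster 9. Adgrl2, an adhesion receptor, stood at 39.98 and 53.3 CPM in cluster 9, at 37.1 and 78.3 CPM in cluster 8 and at 5.4 and 7.77 CPM in the other cells and was called in both clusters. Slpi, Rpn2, Pdia3, Pdia6, Pigg, Ssr3, Hspa5 and Ndufc2 were also among the 12.

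The share of called genes was then compared by a property of the encoded protein, chosen after these leading genes were seen. The longest reading frame of each gene (GENCODE vM21) was searched for a stretch of 19 residues with a mean Kyte-Doolittle hydropathy of at least 1.6, a feature of membrane spans and some signal peptides. With such a segment 492 of 1759 measured genes were called higher in cluster 8 (28%), and without one 159 of 4674 (3.4%). The median log2 ratio was 0.80 and 0.73 with a segment and 0.16 and 0.07 without. In cluster 9 211 of 1629 genes with a segment (13%) and 142 of 4556 without (3.12%) were called higher, with medians of 0.02 and 0.02 and of -0.25 and -0.18. Genes with a segment were thus higher as a class in cluster 8, and in cluster 9 their median was near 0.

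The gap remained outside the lists of plasma cell, ER and transport genes. There, without ribosomal and mitochondrial genes, 438 of 1669 genes with a segment (26.2%) and 149 of 4556 without (3.27%) were called higher in cluster 8. In reading frames under 200 codons the shares were 27.3% with and 2.56% without a segment, and in the longest class 24% and 3.7%. Among the short frames without a segment, 11.6% were called lower in cluster 8.

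**Figure D2:**
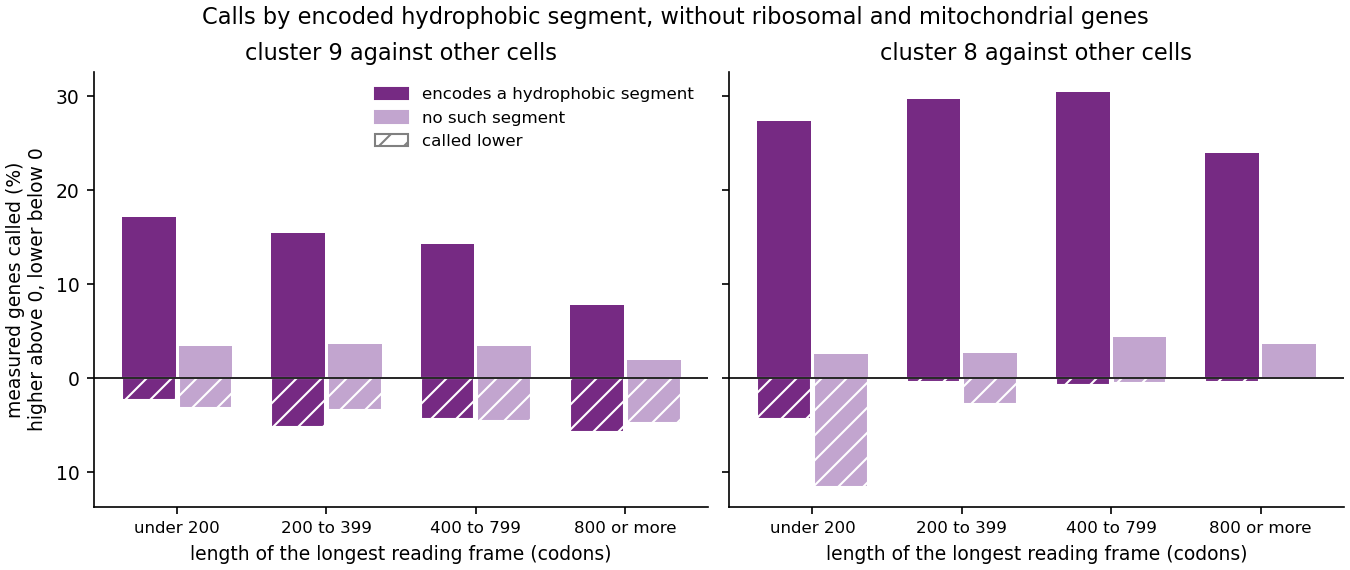
Share of measured genes called higher (above 0) and lower (below 0, hatched) in cluster 9 and in cluster 8 against the other cells, by length of the longest reading frame and by an encoded hydrophobic segment (dark) or none (light), without ribosomal and mitochondrial genes. In cluster 8 the share called higher is 24% to 30.5% with a segment and at most 4.37% without.

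For each of the 11 deposited day 14 clusters against all other cells, the median log2 ratio of genes without a segment was taken from that of genes with one. The difference was 0.25 in cluster 9, 0.59 in cluster 8 and -0.12 to 0.18 in the other clusters. In the plasma-like clusters of the day 7 and chimaera tables, described last, it was 0.40 and 0.42, the highest value of each table. Cluster 8 was also low in ribosomal transcripts. Ribosomal protein genes held 20.3% of non-immunoglobulin UMIs in cluster 9, 6.35% in cluster 8 and 19.6% in the other cells. Cluster 10, with 50 cells, was lower still, at 5.14%. Of the 82 measured cytosolic ribosomal protein genes, a list made after the data were seen, 0 were called in cluster 9 and 69 were called lower in cluster 8. The list median was -0.05 and 0.09 in cluster 9 and -1.81 and -1.48 in cluster 8, where its mean of -1.64 became -2.02 with TMM scaling.

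Genes outside the list of cytosolic ribosomal proteins were also among those called lower in cluster 8. Tmsb10, the actin-binding thymosin beta-10, stood at 3451 and 3438 CPM in cluster 9, at 1251 and 1660.3 CPM in cluster 8 and at 6603 and 6472 CPM in the other cells. Sod1, a cytosolic antioxidant enzyme, stood at 108 and 141 CPM in cluster 9, at 37.1 and 20.6 CPM in cluster 8 and at 152 and 157 CPM in the other cells. Both were called lower in cluster 8. They are among the 12 genes called lower in cluster 8 with the largest ratios, with Slc25a28, Kars, Ifi27l2a, Pcbd2, Atp5e, Fau, Gngt2, Gxylt2 and Uqcc2. Fau also encodes a ribosomal protein and is outside the list only because that was made from Rpl and Rps names. Of 20 measured nuclear genes of oxidative phosphorylation Ndufv2, Uqcrq, Uqcrh and Atp5e were called lower and Ndufa4 higher.

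Mitochondrial transcripts took a larger share of cluster 8. Their median share of all UMIs per cell was 5.76% and 6.57% in cluster 9, 12.9% and 12.8% in cluster 8 and 7.65% and 8.07% in the other cells. None of the 13 mitochondrially encoded genes was called in cluster 8, with a median log2 ratio of 0.68 and 0.66. Its mean over the libraries, 0.67, became 0.29 with TMM scaling. The median ribosomal share of non-immunoglobulin UMIs per cell was 18.5% and 19.5% in cluster 9, 4.91% and 4.86% in cluster 8 and 18.2% and 17.6% in the other cells. Cluster 3, which is among the other cells, had median mitochondrial shares of 12.3% and 13.5%, close to those of cluster 8. Its median ribosomal shares, 9.04% and 9.11%, were also below those of the pooled other cells. The lower depth, the low ribosomal share and the high mitochondrial share of cluster 8 thus went together with its higher secretory, class II and surface transcripts, and their part in those results was not tested.

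**Figure D3:**
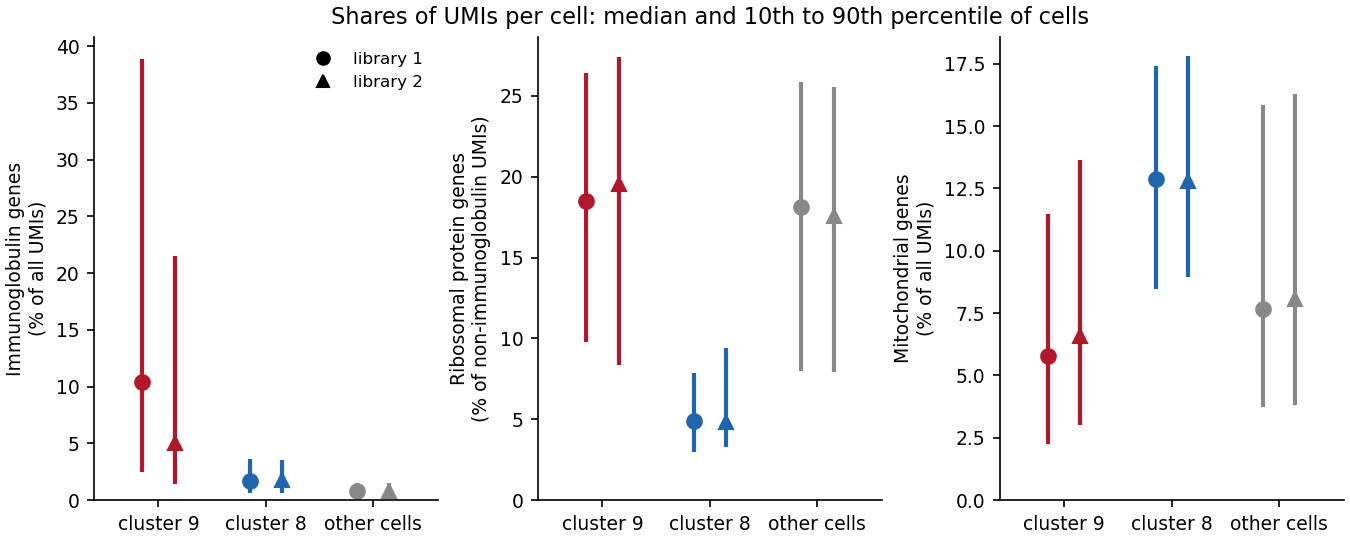
Share per cell of UMIs on immunoglobulin genes (of all UMIs) and on mitochondrial genes (both of all UMIs), and on ribosomal protein genes (of non-immunoglobulin UMIs), in cluster 9, cluster 8 and the other cells, with the median of each library (circle for library 1, triangle for library 2) and a line over the 10th to 90th percentile of cells. Among these 3 sets cluster 9 stands out in immunoglobulin, with medians of 10.4% and 5.07%, and cluster 8 in its low ribosomal and high mitochondrial shares. Cluster 3, pooled here with the other cells, has a mitochondrial share close to that of cluster 8.

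Set against each other, cluster 9 had 345 of 6621 measured genes called higher than cluster 8 (5.21%) and 725 called lower (11%). With TMM scaling 572 were called higher and 380 lower, and the median log2 ratio of all genes was -0.03 and -0.07 in place of -0.48 and -0.39. Of 9 measured transcription factors Prdm1, Irf4, Ell2 and Creb3l2 were called higher in cluster 9, and Ikzf3, a lymphoid factor, and Zbtb20, a zinc finger repressor, lower. The log2 ratio was 6.27 (3.75 to 11.59) and 4.39 (2.99 to 6.29) for Prdm1, 5.56 (3.67 to 8.62) and 4.83 (3.24 to 7.13) for Irf4 and 1.85 (1.48 to 2.23) and 0.67 (0.31 to 1.03) for Xbp1. Xbp1 was therefore higher in cluster 9 in both libraries but was not called.

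Among the leading genes, Sub1, a transcriptional coactivator, stood at 557 and 383 CPM in cluster 9, at 11.1 and 24.7 CPM in cluster 8 and at 30.1 and 25.1 CPM in the other cells. Pml, the organizer of nuclear bodies, stood at 98.4 and 116 CPM in cluster 9, at 7.43 and 0 CPM in cluster 8 and at 7.91 and 5.5 CPM in the other cells. Sfn, the 14-3-3 protein sigma, stood at 154 and 138 CPM in cluster 9, at 0 and 4.12 CPM in cluster 8 and at 30.01 and 27 CPM in the other cells. Sub1 and Pml of cluster 8 were near or below the other cells, and Sfn was called lower there. Irs2, an adaptor of insulin-type receptors, stood at 126 and 116 CPM in cluster 9, at 11.1 and 0 CPM in cluster 8 and at 13.1 and 13.8 CPM in the other cells. Prg2, Prdm1, Irf4, Isg20, Rbm47, Aldh3b1, Stoml1 and Rhob were the others of the 12.

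Within the secretory program the clusters divided by gene. Of 25 measured ER chaperones 8 were called higher in cluster 9, Hsp90b1, Calr, Pdia4, Dnajb9, Dnajc3, Creld2, Selenos and Selenom, and Dnajc10 was called lower. Hspa5, Pdia6, P4hb, Hyou1 and Manf were among those not called. The channel subunits Sec61a1, Sec61b and Sec61g were the translocon genes called higher in cluster 9. Of 23 N-glycosylation genes Gmppb, which makes GDP-mannose, was called higher and Stt3b, Ganab and Uggt1 lower. The median of that list was 0.17 and -0.72, and its mean of -0.27 turned to 0.12 with TMM scaling.

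**Figure D4:**
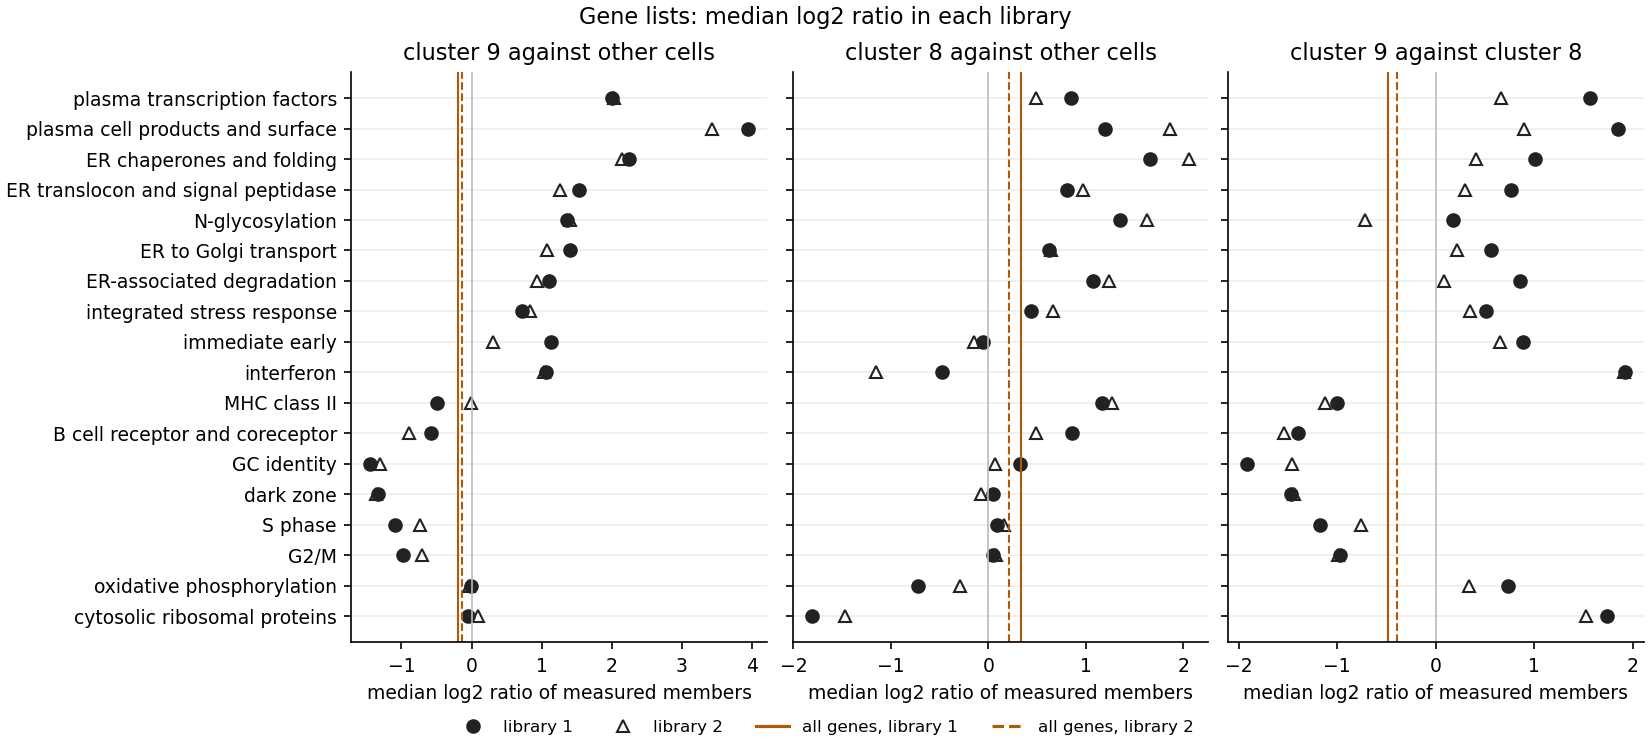
Median log2 ratio of the measured members of each gene list for cluster 9 against other cells, cluster 8 against other cells and cluster 9 against cluster 8, with filled circles for library 1 and open triangles for library 2, and orange lines at the median of all measured genes. Plasma cell and ER lists lie above those lines in both clusters, GC identity lies below them in cluster 9, and ribosomal proteins lie below them in cluster 8.

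B cell and class II genes were lower in cluster 9 than in cluster 8. Of 21 measured GC identity genes 13 were called lower, of 21 B cell receptor genes 12 and of 11 class II genes 5, and none of these lists had a gene called higher. The median of the GC identity list was -1.92 and -1.46, and its mean was -1.69, or -1.3 with TMM scaling. The log2 ratio was -2.56 (-2.79 to -2.35) and -2.63 (-2.84 to -2.43) for H2-Aa and -2.44 (-2.7 to -2.2) and -3.03 (-3.34 to -2.74) for Ms4a1. Sorl1, a sorting receptor, stood at 52.3 and 22 CPM in cluster 9, at 486 and 383 CPM in cluster 8 and at 146 and 133 CPM in the other cells. March1, a ubiquitin ligase that limits surface class II, stood at 33.8 and 22 CPM in cluster 9, at 357 and 231 CPM in cluster 8 and at 129.6 and 118 CPM in the other cells. Both had their highest values in cluster 8 and their lowest in cluster 9. Emid1, Dcbld1, Sox5, Herc3, Lpp, Abca3, Cnpy3, Pvt1, Fam69a and Tespa1 were the others of the 12. Of the 22 G2/M genes 7 were called lower in cluster 9, Ccnb1 and Aurkb among them.

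Of 9 measured trafficking receptors 2 were called higher and 2 lower in cluster 9 than in cluster 8. S1pr1, the receptor for egress into blood, stood at 52.3 and 25.1 CPM in cluster 9, at 7.43 and 0 CPM in cluster 8 and at 14.7 and 10.1 CPM in the other cells. Selplg, the ligand of P-selectin, stood at 117 and 84.7 CPM in cluster 9, at 14.9 and 20.6 CPM in cluster 8 and at 8.63 and 6.84 CPM in the other cells. S1pr2, the receptor that confines GC B cells, stood at 76.9 and 141 CPM in cluster 9, at 327 and 375 CPM in cluster 8 and at 202 and 217 CPM in the other cells. S1pr1 and Selplg are those called higher in cluster 9, and S1pr2 and Itgb1 those called lower. Itgb1, integrin beta-1, stood at 135 and 122 CPM in cluster 9, at 642 and 692 CPM in cluster 8 and at 159 and 172 CPM in the other cells.

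The libraries of cluster 9 differed in one growth gene. Myc, a transcription factor of cell growth, stood at 6.15 and 75.3 CPM in cluster 9, at 63.1 and 57.7 CPM in cluster 8 and at 25.5 and 27.7 CPM in the other cells. It was called higher in cluster 8 and lay on either side of the other cells in cluster 9. Its log2 ratio in cluster 8 was 1.31 (0.52 to 2.0) and 1.06 (0.18 to 1.81), and with G1 cells alone the mean over the libraries was -0.50. Of 20 measured genes of MYC-driven growth 1 was called higher in cluster 9 and 2 in cluster 8, with 0 lower in either.

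Interleukin-4 is a helper T cell signal to GC B cells and acts through STAT6. Of 10 measured genes of its response Bcl2l1 and Xbp1 were called higher and Fcer2a and Mybl1 lower in cluster 9. Of 9 measured in cluster 8 Il4ra, Il2rg and Xbp1 were called higher. Il4ra, the receptor chain for interleukin-4, stood at 52.3 and 40.8 CPM in cluster 9, at 260.0 and 194 CPM in cluster 8 and at 92.6 and 82.2 CPM in the other cells. It was thus above the other cells in cluster 8 and below them in cluster 9, without a call there.

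Antibody transcripts took 16.5% and 8.43% of all UMIs in cluster 9, 2.03% and 1.9% in cluster 8 and 0.904% and 0.91% in the other cells. The median cell held 150 and 71 UMIs of heavy chain constant genes in cluster 9, 8 and 7 in cluster 8 and 7 and 6 in the other cells. Cluster 8 was thus near the other cells in its heavy chain count per cell, at a lower total depth.

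A cell was given a heavy chain where at least 3 constant region UMIs were seen and at least 80% of them fell on 1 gene. An IgG chain was dominant in 33 of 68 (48.5%, 36.2 to 61) and 42 of 59 (71.2%, 57.9 to 82.2) cells of cluster 9, in 31 of 80 (38.8%, 28.1 to 50.3) and 30 of 65 (46.2%, 33.7 to 59) cells of cluster 8 and in 1236 of 5471 (22.6%, 21.5 to 23.7) and 1567 of 5906 (26.5%, 25.4 to 27.7) other cells, with exact 95% intervals. The IgG share of both clusters was above that of the other cells in both libraries, and the intervals of the clusters overlapped in both. Ighm was dominant in 48.5% and 28.8% of cluster 9 cells, 61.2% and 52.3% of cluster 8 cells and 77.3% and 73% of other cells.

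**Figure D5:**
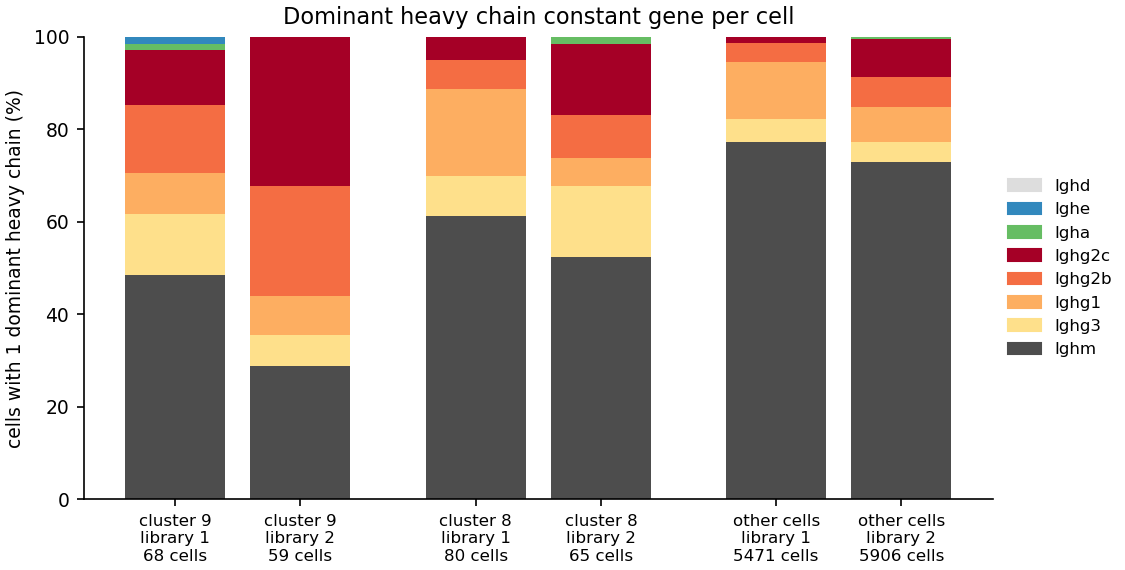
Dominant heavy chain constant gene of the cells with a call, as a share of those cells, in cluster 9, cluster 8 and the other cells of libraries 1 and 2. Ighm makes up 48.5% and 28.8% of cluster 9, 61.2% and 52.3% of cluster 8 and 77.3% and 73% of the other cells.

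Variable segments were repeated in cluster 9 of library 2, a pattern singled out after its values were seen. Igkv8-28 was the dominant kappa segment in 19 of 57 cells of cluster 9 there (33.3%, 21.4 to 47.1), in 1 of 61 of cluster 8 and in 88 of 3387 other cells. In library 1 it was dominant in 1 of 49 cells of cluster 9, 1 of 62 of cluster 8 and 21 of 2656 other cells. Of the 19 cells 14 had a dominant heavy chain, which was Ighg2b in 11 and Ighg2c in 3, and the 9 with a dominant heavy segment used Ighv1-18. Ighv1-18 was dominant in 10 of 26 cells of cluster 9 in library 2, 2 of 39 of cluster 8 and 7 of 735 other cells. The IgG share of cluster 9 in library 2 thus includes cells that share both segments. Without the cells of Igkv8-28, an alternative added after seeing the data, it was 62.2% in cluster 9, 46.2% in cluster 8 and 26.3% in the other cells. Segments were repeated in the other sets too. In the other cells of library 2 Ighv3-6 was dominant in 241 of 735 and Igkv3-2 in 1069 of 3387. In cluster 8 Igkv3-2 was dominant in 10 of 62 and 12 of 61 cells. Of 945 such other cells of library 2 with a dominant heavy chain 941 had Ighm, and they were kept in the IgG shares. Ighg2b and Ighg2c are similar in sequence, so the split between them is uncertain.

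The segment known from NP responses, Ighv1-72 (V186.2), was dominant in 6 of 46 and 1 of 26 cells of cluster 9, in 9 of 47 and 6 of 39 of cluster 8 and in 125 of 672 and 69 of 735 other cells. Its intervals in cluster 9, 4.94% to 26.3% and 0.0973% to 19.6%, cover the shares of the other cells, 18.6% and 9.39%. Lambda light chains, with which that segment pairs in NP-binding antibodies, were dominant in 8 of 64 and 2 of 63 cells of cluster 9, in 13 of 53 and 6 of 43 of cluster 8 and in 1242 of 5283 and 804 of 6421 other cells. In cluster 9 this is 12.5% and 3.17%, against 23.5% and 12.5% in the other cells. Without the cells of the repeated kappa segment it was 12.7% (5.65 to 23.50) and 4.35% (0.531 to 14.8) in cluster 9. The other cells then stood at 23.53% and 12.7%. The intervals of cluster 9 lie below the other cells in both libraries, but in library 2 not once the repeated segment is left out. These shares rest on few lambda cells, and a difference was not tested.

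Clusters with the same markers in the other tables of the series are set beside these values with no comparison, since the tables differ in depth and in the genes they list. They held 49 of 1012 and 101 of 2530 cells at day 7, sorted as B220+ CD38- GL7hi. They held 136 of 7314 cells of irradiated Ccl19Cre/+ Il4ra f/f hosts and 288 of 8038 cells of Il4ra+/+ hosts, both given wild type bone marrow and taken at day 14. In these 4 libraries Prdm1 stood at 207, 177, 67.8 and 75 CPM in those clusters, against 3.35, 4.04, 0.919 and 1.86 CPM in their other cells. Jchain stood at 19538, 23849, 18466 and 22464 CPM, against 1072, 1195, 678 and 757 CPM. Both genes were above the other cells in each library. Ly75, raised in cluster 8, stood at 36.6, 41, 32.6 and 29 CPM, against 39.9, 54.7, 25.3 and 27.6 CPM. Ribosomal protein genes held 20.1%, 19.5%, 22.3% and 21.9% of UMIs, against 21.2%, 21.7%, 25% and 25.2% in their other cells. A low ribosomal share such as that of cluster 8 was not seen in them.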

How the data were processed

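What was deposited is a matrix of raw UMI counts for each of the day 7, day 14 and chimaera experiments, with cluster, phase and position calls by the authors. Each matrix holds the cells of its libraries together, and the library of each cell was read from the deposited cell annotations. Cell Ranger, Seurat and mm10 are named without versions, per the submitters' processing notes. All deposited cells were used. At day 14 these held 500 to 9991 UMIs among the other cells and 985 to 9998 in cluster 9. Any deeper cells are absent from the shares, medians and antibody amounts given here. The clusters, gene lists and naming rule were chosen with earlier results of these data known.

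UMIs were summed per library and set, leaving the 392 immunoglobulin symbols of 31053 out of the totals. A set with 0 UMIs got a floor of 3 counts per library. Intervals are exact conditional binomial for ratios and Clopper-Pearson for shares, at 95%. Named genes were the 5 markers, for each contrast the 12 called genes in each direction with the largest smaller ratio of the 2 libraries (leaving out immunoglobulin, mitochondrial, ribosomal and predicted genes), and from each of 32 lists its called and its 6 most abundant members. Of 516 list symbols 514 were found. Some genes that this rule names are not reported here. Scrublet (scanpy 1.11.5) called 0.0101% of cells doublets, so its automatic threshold had not worked, and the 5% with the highest scores were left out as an alternative. TMM came from edgeR 4.0.16, with Python 3.11.15 and scipy 1.17.1 for the rest. Gene positions and reading frames are from GENCODE vM21.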

Additional observations from a re-analysis of the deposited data

How the results depend on the processing

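Each ratio was taken within a library, so the sets were already compared library by library, and no test was run. In cluster 9 against the other cells, 240 genes were called higher at a minimum of 50 CPM, 424 lower on the scale of all UMIs and 564 lower at a log2 ratio of 0.5. At a log2 ratio of 2 the counts were 133 higher and 31 lower, and with cells thinned to 1000 UMIs 219 and 109. In cluster 8 against the other cells they were 319 higher and 485 lower with TMM scaling, 1057 and 415 at a log2 ratio of 0.5, 82 and 12 at 2, and 292 and 131 in G1 cells. Thinning gave 380 higher. In cluster 9 against cluster 8 they were 572 higher and 380 lower with TMM scaling, 81 and 178 at a log2 ratio of 2, 188 and 234 after thinning and 173 and 370 in G1 cells.

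In 1 library alone, where a call need hold only once, 549 to 628 genes were higher and 548 to 605 lower in cluster 9, 1154 to 1317 and 392 to 407 in cluster 8, and 544 to 588 and 1207 to 1568 between the clusters. With TMM scaling 613 of 624 calls of cluster 9 and 543 of 891 of cluster 8 were still called in the same direction. Myc in cluster 8 turned to -0.50 in G1 cells, and the cause was not tested. Without the highest doublet scores, the shares of cells in both clusters stayed within their intervals. A count of 3 is 9.23 to 12.4 CPM in the clusters, and lower levels could not be told from 0 at this depth.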
